A study of Mus musculus with 2 samples.

Results

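The SR splicing factors described here are 10 genes, Srsf1, Srsf2, Srsf3, Srsf4, Srsf5, Srsf6, Srsf7, Srsf9, Srsf10 and Srsf11, picked by symbol through their Ensembl gene identifiers from the 43346 gene entries of the deposited tables. They carry 67 of the 103639 transcript entries, and each transcript was put into a class by its annotated type: coding, nonsense-mediated decay, retained intron, or processed transcript (a spliced RNA with no annotated reading frame). The class is a label, and a model in the retained intron class need not keep a whole intron of the coding message. The RNA came from common myeloid progenitors, the bone marrow cells from which both granulocyte-macrophage and megakaryocyte-erythroid precursors arise, taken from adult male mice of strain C57BL/6J at an age of 5 to 6 weeks. There is 1 group of 2 libraries, labelled biological replicates 1 and 2 but given the same donor label, each made from 100 ng of rRNA-depleted total RNA with the ScriptSeq kit. No genotype, treatment or time differed, so no condition was compared, no p-value was computed, and an SD over n = 2 measures only the spread between these libraries.

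SR proteins bind exonic enhancer sequences through RNA recognition motifs, and recruit the splicing machinery through a domain rich in arginine and serine that SRPK and CLK kinases phosphorylate. They also act in mRNA export, translation and transcription. Many SR genes limit their own output: their pre-mRNA can include a "poison" exon with an early stop codon, or keep an intron, and the resulting RNA is degraded by nonsense-mediated decay or held in the nucleus. In decay, a ribosome that stops well upstream of an exon junction recruits the UPF and SMG proteins. SR proteins are studied in this lineage because SRSF2 is among the splicing factor genes recurrently mutated in human myeloid malignancies.

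The stop codons that set the decay models apart are short to read. The stretches shown run from the first base that the decay model adds to the coding message through the first in-frame stop, 5′ to 3′, on GRCm38 with GENCODE M21 exons, and capitals mark the stop codon. They are shown because these stops shorten the reading frame of the coding message.
Srsf3-201: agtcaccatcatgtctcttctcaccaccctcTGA
Srsf6-201: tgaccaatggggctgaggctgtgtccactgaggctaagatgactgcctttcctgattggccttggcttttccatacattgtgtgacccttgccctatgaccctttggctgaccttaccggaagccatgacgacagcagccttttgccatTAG
Srsf4-203: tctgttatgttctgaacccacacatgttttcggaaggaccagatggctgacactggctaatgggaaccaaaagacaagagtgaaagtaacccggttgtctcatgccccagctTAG
Srsf11-206: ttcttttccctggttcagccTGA
Srsf5-208: ggcttctctgtaTAG
Srsf10-207: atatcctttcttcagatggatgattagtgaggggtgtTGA
The Srsf3, Srsf6, Srsf4 and Srsf11 stretches open separate exons inside an intron of the coding message. Those of Srsf5 and Srsf10 lengthen an exon that the coding message also has. In the first 5 the stop found in the frame of the coding message is also the annotated stop. Srsf10-207 is annotated as a processed transcript with no reading frame, so its stop is only what the frame of the coding message would meet.

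The Srsf3 exon lies on the plus strand at chr17:29039454-29039909, is 456 nt long and sits in intron 3 of the coding model Srsf3-202. Its stop leaves 124 codons of 164 and lies 548 nt before the last exon junction. The Srsf6 exon lies on the plus strand at chr2:162932815-162933082, is 268 nt long, and leaves 135 codons of 339, with 534 nt from the stop to the last junction. The Srsf4 exon, on the plus strand at chr4:131884276-131884482, is 207 nt long and leaves 73 codons of 491. The Srsf11 exon, on the minus strand at chr3:158024123-158024231, is 109 nt long and leaves 112 codons of 476. In Srsf5-208 the exon on the plus strand at chr12:80947116-80947381 begins upstream of the coding exon and leaves 46 codons of 269. In all 5 models the stop lies upstream of the last exon junction, by 251 nt in Srsf5-208 and by more in the others. Srsf7 and Srsf9 have decay models in GENCODE M21, but no such transcript is among the entries of the deposited tables, so the table's 1 Srsf7 transcript and 4 Srsf9 transcripts hold none.

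The deposited totals were 28158803 estimated reads in replicate 1 and 84041054 in replicate 2, so replicate 2 was 2.99 times deeper. Progenitor identity was checked on marker lists: all 6 progenitor markers (Cd34, Kit, Myb, Mpo, Fcgr2b, Fcgr3) reached 1 TPM (transcript abundance corrected for length and library depth) in both libraries, with summed levels of 565.2 and 676.1 TPM. The 4 B cell markers summed to 0 and 0.07 TPM with Cd79a, Pax5 and Ms4a1 at 0 in both libraries, and the 4 T and NK cell markers to 0 and 0.02 TPM with Cd3e, Cd8a and Ncr1 at 0. The 3 late erythroid markers summed to 6.33 and 6.19 TPM, the 4 late neutrophil markers to 2.45 and 2.75 TPM, and the 5 stromal and endothelial markers to 8.95 and 13.2 TPM, of which Pecam1 gave 8.76 and 12.6 TPM, with Col1a1 and Cdh5 at 0. Ly6a and Il7r, which the usual progenitor sort selects against, summed to 1.65 and 0.86 TPM. Their part in the SR values was not tested.

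All 10 SR genes were expressed: each had at least 1 TPM in both libraries, against 42.5% of 21474 protein-coding genes, and at least 1002 estimated reads in each. Their median level was 77.1 TPM in replicate 1 and 80.6 TPM in replicate 2 (78.8 ± 2.43, SD, n = 2), while the 9129 protein-coding genes at 1 TPM or more had a median of 7.26 ± 0.757 TPM. Srsf5 and Srsf3 were at the top and Srsf9 and Srsf4 at the bottom of the set, and even Srsf4 lay above 83.2% of those genes. In bulk RNA, more cells of a type and more RNA per cell cannot be told apart.

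**Figure D1:**
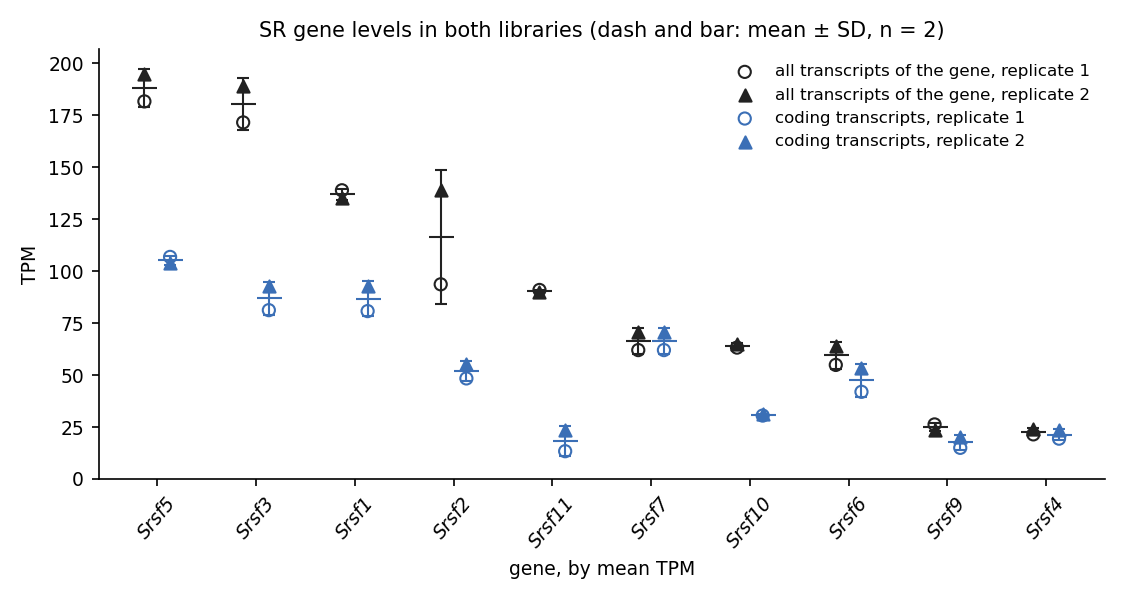
Gene level and summed coding-transcript level of each SR gene in TPM (y axis), by library (circle replicate 1, triangle replicate 2), with mean and SD (n = 2). Srsf5 has the highest mean on both scales, Srsf11 drops from 90.6 to 18.4 TPM when only coding transcripts are summed, and both scales coincide for Srsf7.

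Srsf1, at chr11:88047373-88053755 on the plus strand (ENSMUSG00000018379.13), encodes the founding SR protein, a splicing activator with oncogene activity when overproduced. It stood at 139.0 TPM in replicate 1 and 135.2 TPM in replicate 2 (137.1 ± 2.64). In CPM, estimated reads scaled to library depth but not to length, it was at 1077 and 998.4. The coding model Srsf1-205 held 60.2 and 63.5 TPM, and the shorter coding model Srsf1-201 held 20.6 and 29.0 TPM. Srsf1-201 keeps intron 3 of Srsf1-205 whole, and its 14.8% and 21.4% of the gene's TPM are counted here as coding. Decay models were almost undetected: their share of the gene's TPM was 0.122% and 0.717%.

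The retained intron share of Srsf1 was 41.7% and 30.7% of TPM, but only 7.87% and 5.30% of its estimated reads. Nearly all of it was Srsf1-203, a 759-nt model at 55.7 TPM in replicate 1 and 39.3 TPM in replicate 2. Despite its class, that model holds no part of an intron of Srsf1-205. Every base of Srsf1-203 also lies in coding exons, so only its 1 splice junction, over the 881-nt intron chr11:88050096-88050976, sets it apart from the coding transcripts. Reads that do not cross that junction fit both models, so this share rests on how the estimate divided them. The share differed more than 5-fold between the scales, and the retained intron share of no other member differed by as much.

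Srsf9, at chr5:115327177-115333080 on the plus strand (ENSMUSG00000029538.9), encodes a close relative of Srsf1. It was among the lowest at 26.3 and 23.7 TPM (25.0 ± 1.80), with 1002 and 3086 reads. Its libraries differed in make-up more than in level: coding transcripts were at 15.0 and 20.3 TPM (Srsf9-201 at 4.91 and 8.76 TPM, Srsf9-204 at 10.1 and 11.5 TPM), and the processed transcript Srsf9-202 was at 11.3 TPM in replicate 1 and 3.46 TPM in replicate 2. That is 42.9% and 14.6% of the gene, and the deposited TPM intervals of Srsf9-202, 9.02 to 12.9 and 2.58 to 4.31, did not overlap. By estimated reads its share was 22.3% and 5.94%, resting on only 223 and 183 reads. In GENCODE M21, Srsf9-202 has the same second exon, on the plus strand at chr5:115328347-115328704, as the decay model Srsf9-205. The deposited entry is 474 nt long against 1237 nt in M21, so whether the quantified version had that exon is not known here.

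Srsf3 and Srsf7 encode small SR proteins that also serve as adaptors for the mRNA export receptor Nxf1. Srsf3, at chr17:29032628-29043373 on the plus strand (ENSMUSG00000071172.8), stood at 171.6 and 189.2 TPM (180.4 ± 12.5). Its decay model Srsf3-201, which carries the 456-nt exon, was at 28.8 TPM in replicate 1 and 31.9 TPM in replicate 2. That is 16.8% of the gene in each library (16.8% ± 0.0362). By estimated reads the share was nearly the same, 15.6% (95% Wilson interval 15.1% to 16.0%) and 15.4% (15.1% to 15.7%). The coding model Srsf3-202 held 81.3 and 92.7 TPM, or 47.3% and 49.0%.

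The rest of Srsf3 was retained intron RNA, 35.9% and 34.2% of TPM. Srsf3-205 held 51.2 and 53.2 TPM, and Srsf3-204, which keeps all of introns 3 and 4, held 10.4 and 11.5 TPM. In M21 both of these models run over the poison exon, together with Srsf3-203, which was at 0. The 4 models that overlap the exon therefore sum to 52.7% and 51.0% of the gene, and only Srsf3-201 splices at both of its ends. The deposited lengths of Srsf3-201 and Srsf3-205 are 1919 and 910 nt against 2594 and 2110 nt in M21, so their exon maps are those of M21 and may differ from the version quantified.

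**Figure D2:**
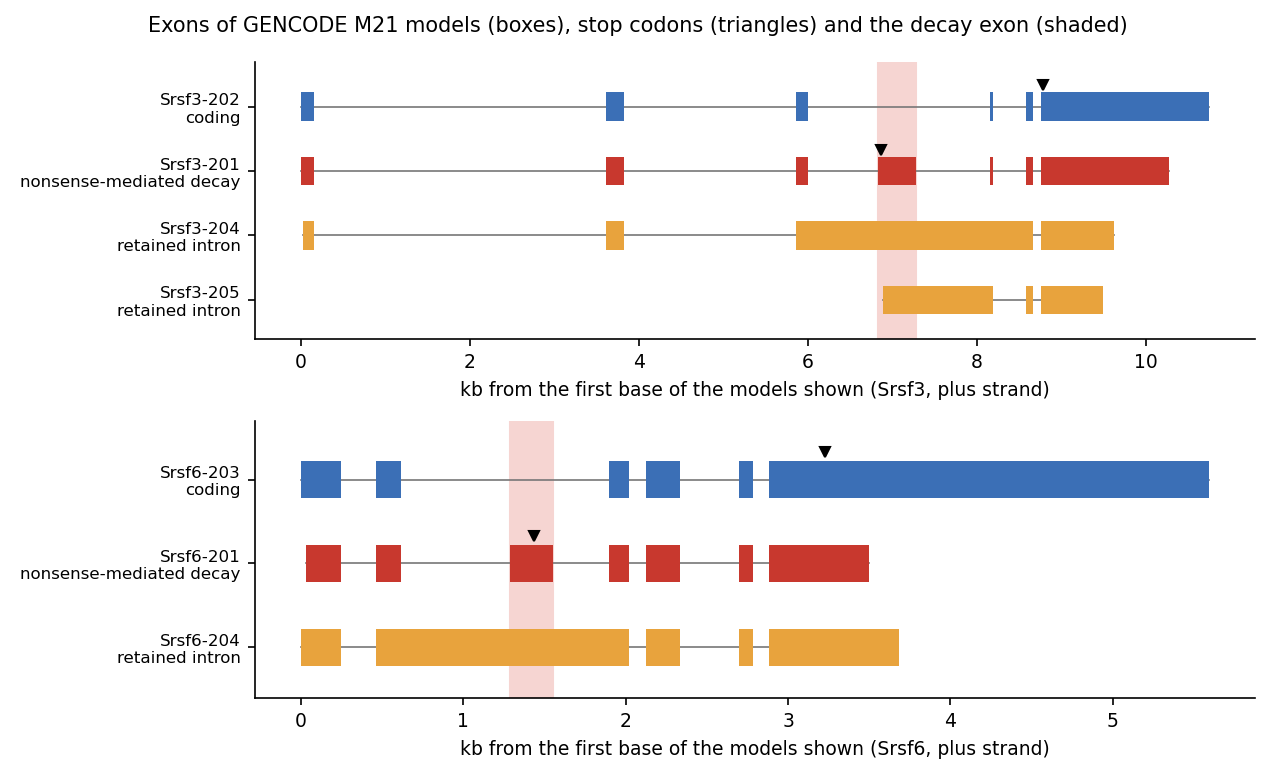
Exons (boxes) of Srsf3 and Srsf6 models in GENCODE M21, in kb from the first base shown, coloured by class as in the bars of transcript shares, with stop codons as triangles and the poison exon shaded. The retained intron models Srsf3-204, Srsf3-205 and Srsf6-204 cover the shaded exon without splicing at both of its ends, and 392 of the 456 nt are covered by Srsf3-205.

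Srsf7, at chr17:80200080-80207307 on the minus strand (ENSMUSG00000024097.10), stood at 62.0 and 70.9 TPM (66.5 ± 6.25). Its single deposited transcript, Srsf7-201, is coding, so its coding share of 100.0% reflects the table and says nothing about decay RNA. In M21 the decay model Srsf7-203 adds a 460-nt exon on the minus strand at chr17:80204622-80205081, whose in-frame stop leaves 137 codons of 238. Reads from that exon could not be assigned to a transcript in these tables.

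Srsf4, Srsf5 and Srsf6 encode related SR proteins with a pair of RNA recognition motifs. Srsf6, at chr2:162931528-162937121 on the plus strand (ENSMUSG00000016921.10), stood at 54.9 and 64.2 TPM (59.6 ± 6.58). Its coding model Srsf6-203 was at 42.0 TPM in replicate 1 and 53.1 TPM in replicate 2, and its decay model Srsf6-201 at 10.3 and 9.46 TPM. The decay share was thus 18.8% and 14.7% (16.8% ± 2.90), level with Srsf3 but with the libraries further apart. By estimated reads it was 9.32% (8.82% to 9.85%) and 7.13% (6.87% to 7.39%), about 2 times lower than by TPM. The intron retained in Srsf6-204, intron 2 of 1283 nt, is the one that holds the poison exon, and that model held 4.77% and 2.40%.

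Srsf4, at chr4:131873617-131901706 on the plus strand (ENSMUSG00000028911.12), had the lowest mean at 21.5 and 24.1 TPM (22.8 ± 1.83), though Srsf9 was lower in replicate 2, and nearly all of it was the coding model Srsf4-202, at 19.4 and 23.4 TPM. Its decay share was 6.71% in replicate 1 and 1.04% in replicate 2, resting on only 77 and 38 estimated reads over 2 models. Srsf4-203, whose stop is shown above, was at 0.72 TPM in replicate 1 and at 0 in replicate 2. The retained intron share of the gene was 2.93% and 1.83%. Both its decay and its retained intron share were higher in the shallower library.

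Srsf5, at chr12:80945504-80950507 on the plus strand (ENSMUSG00000021134.13), had the highest mean at 181.7 and 194.8 TPM (188.3 ± 9.24). Its range overlapped that of Srsf3 (171.6 to 189.2 TPM), and in CPM the libraries stood the other way round, at 743.0 in replicate 1 and 624.5 in replicate 2. Coding transcripts summed to 106.9 and 103.8 TPM. Between the libraries the main coding models changed places in the estimate. Srsf5-201 was at 68.3 then 42.1 TPM and Srsf5-202 at 35.0 then 52.4 TPM, with no overlap of the deposited intervals. Both models have 8 exons, with 269 and 270 codons. Reads that fit both had to be divided between them, so the change of places rests partly on that division.

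Srsf5-212, which keeps intron 5 whole (1229 nt, chr12:80947866-80949094), was at 38.5 TPM in replicate 1 and 31.2 TPM in replicate 2, or 35.1% and 29.2% of the gene's reads. Srsf5-207 and Srsf5-209 keep the same intron with others and held 1.38% and 1.97%, and 3.22% and 2.88%, of TPM. All retained intron models together were 25.8% and 20.9% of TPM and 44.5% and 39.8% of reads, and on both scales replicate 1 was higher. Processed transcripts were 14.7% and 24.0% of TPM, above retained intron RNA in replicate 2, but 4.51% and 9.31% of reads. Among them Srsf5-206, which splices to a site inside intron 5, was at 10.8 and 27.0 TPM, and Srsf5-211 at 15.9 and 19.6 TPM. The decay model Srsf5-208 held only 0.770% and 1.92%.

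Srsf2, at chr11:116849901-116853094 on the minus strand (ENSMUSG00000034120.14), encodes the SR protein long used as the marker of nuclear speckles. It was at 93.7 TPM in replicate 1 and 139.1 TPM in replicate 2 (116.4 ± 32.1), the widest spread of the set, 1.49-fold. In CPM the libraries stood at 278.2 and 292.5, 1.05-fold apart. The TPM gap lay mostly in the 433-nt processed transcript Srsf2-205, at 36.9 and 69.7 TPM but only 7.87% and 12.8% of the reads. The coding model Srsf2-201 was at 48.0 and 55.2 TPM.

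Srsf2-203, which keeps intron 2 (1059 nt), was at 8.38 and 8.62 TPM with overlapping intervals, 8.94% and 6.20% of the gene. In M21 that intron begins 7 nt after the stop codon of Srsf2-201, so keeping it does not shorten the reading frame. The decay share of Srsf2 was estimated at 0 in replicate 1 and at 3.80% of TPM in replicate 2, where it rested on 430 estimated reads of Srsf2-204. Both decay models of Srsf2 lie within its coding exons and have no splice junction of their own, so these values, the 0 included, rest on how the estimate divided reads. The posterior mean TPM gave 0.727% and 3.81%, and the deposited interval of Srsf2-204 reached 1.48 TPM in replicate 1 and ran from 2.72 to 7.75 TPM in replicate 2.

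Srsf10, at chr4:135855747-135869908 on the plus strand (ENSMUSG00000028676.13), encodes a factor that turns into a splicing repressor when dephosphorylated. It was steady at 63.2 and 64.9 TPM (64.1 ± 1.15). Coding transcripts held 30.5 and 31.3 TPM, chiefly Srsf10-204 (14.1 and 15.5 TPM) and Srsf10-205 (13.0 and 11.9 TPM), with Srsf10-202 at 2.92 and 3.63 TPM. The table has no decay or retained intron model of this gene, and the rest, 32.7 and 33.6 TPM, was processed transcript. That is 51.7% and 51.8% of TPM, but 15.9% and 22.5% of the gene's reads. The largest was Srsf10-207, shown above, at 18.7 TPM in replicate 1 and 15.8 TPM in replicate 2, with overlapping intervals. Srsf10-201 has the same lengthened exon and was at 2.00 and 7.31 TPM. Srsf10-206, which keeps intron 5, was at 8.06 and 9.90 TPM.

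Srsf11, at chr3:158010473-158036639 on the minus strand (ENSMUSG00000055436.14), encodes a nuclear SR-type protein and was the member with the smallest coding share. The gene level was nearly equal at 91.0 and 90.2 TPM (90.6 ± 0.537), but the coding transcripts were at 13.4 TPM in replicate 1 and 23.4 TPM in replicate 2. The retained intron share was 82.7% and 71.8% of TPM, and 75.8% (75.0% to 76.6%) and 56.3% (55.7% to 57.0%) of reads, higher in replicate 1 on both scales. More retained intron and decay RNA, 85.3% and 74.0% of TPM together, was found in few genes: 97.9% of the 4731 genes set beside it had a smaller share.

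Of the 7 retained intron models of Srsf11, 4 held 5% of the gene or more. Srsf11-207 was at 34.7 and 32.4 TPM and Srsf11-208 at 8.44 and 7.98 TPM, each with overlapping intervals. Srsf11-213 was at 20.4 TPM in replicate 1 and 9.49 TPM in replicate 2, while the coding model Srsf11-202 went the other way, at 12.6 and 23.1 TPM. These 2 models account for most of the difference between the libraries. Srsf11-213 has no splice junction that coding models lack, and only 472 of its 2952 nt lie outside coding exons. Reads from the rest also fit coding models, so its level and that of Srsf11-202 rest partly on how the estimate divided reads. In M21 all 4 have exon sequence in intron 2, the intron of Srsf11-202 in which the 109-nt poison exon lies. The deposited Srsf11-207 is 813 nt long against 1670 nt in M21, so its map may differ. Srsf11-203 runs over that exon and held 6.52% and 8.93%, whereas the decay models held 2.59% and 2.24% together. Among the decay models, Srsf11-206, which carries the exon, held only 0.0769% and 1.10%. Srsf11-212, which does not overlap the exon, held 2.52% and 1.14%.

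**Figure D3:**
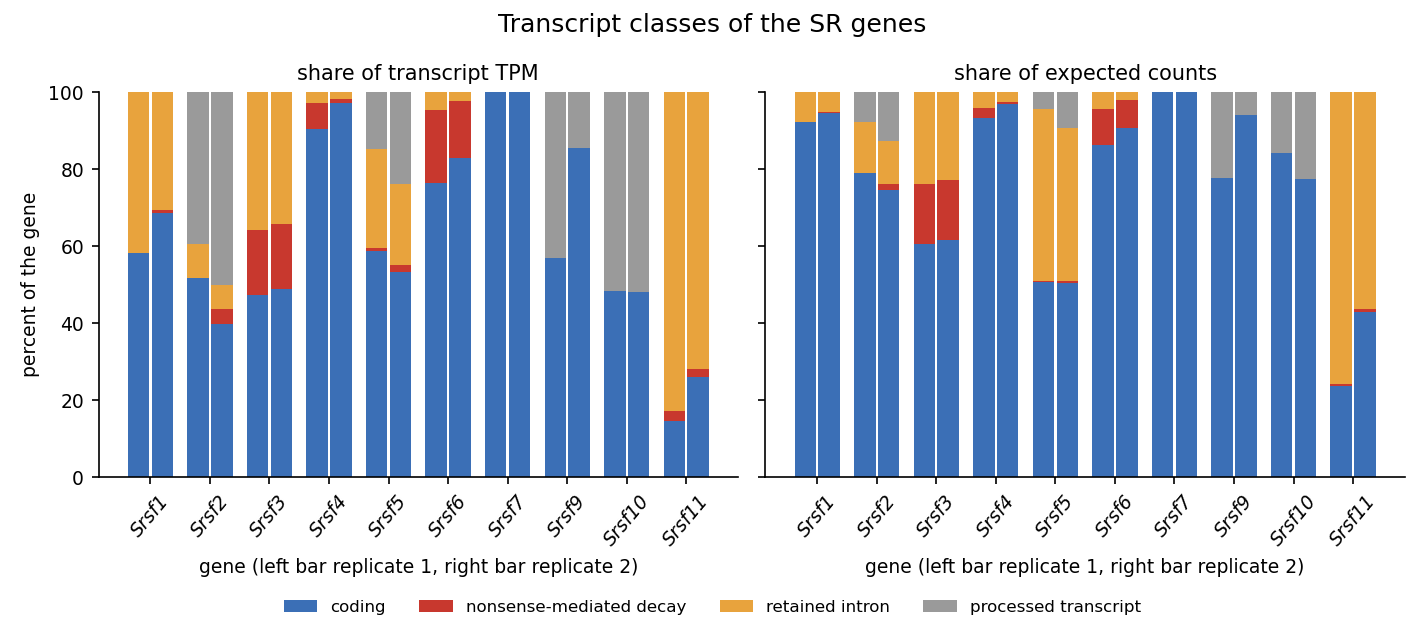
Percent of each SR gene in coding, decay, retained intron and processed transcripts, by TPM (left) and by estimated reads (right), left bar replicate 1 and right bar replicate 2. Among the SR genes decay shares are largest in Srsf3 and Srsf6 (mean 16.8% of TPM each), and that of Srsf6 is 9.32% and 7.13% of reads. The retained intron share is largest in Srsf11 (82.7% and 71.8% of TPM). That of Srsf1 falls from 41.7% and 30.7% of TPM to 7.87% and 5.30% of reads.

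Across the set, 7 of the 10 genes have decay and retained intron models in the deposited tables. Decay plus retained intron RNA made up at least 20% of TPM in both libraries in 4 of those 7 (Srsf1, Srsf3, Srsf5 and Srsf11), where the background was 26.3% of 4731 protein-coding genes with such a model and at least 100 reads. Srsf6 missed the line in 1 library, with 23.6% and 17.1%. By estimated reads 3 genes passed (Srsf3, Srsf5 and Srsf11) against a background of 16.9%. The background was 26.8% among genes with at least 1000 reads, where the same 4 passed. These shares are set side by side with no test of the difference.

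Decay RNA reached 10% of TPM in both libraries in Srsf3 and Srsf6, against 22% of the 2123 genes with a decay model. The mean decay share of Srsf3 lay above that of 74.5% of these genes, and that of Srsf6 above 74.4%. Models of the retained intron class reached 20% in Srsf1, Srsf3, Srsf5 and Srsf11, against 20% of 4259 genes. By the M21 exons Srsf1-203 holds no part of an intron of Srsf1-205. Srsf3-205 and the retained intron models of Srsf11 hold only parts of introns. How many models keep a whole intron was not counted over the 4259 genes. Median shares over the 10 SR genes were 59.3% ± 2.36 coding, 0.963% ± 0.731 decay and 5.58% ± 1.81 retained intron. Over the 4731 genes the medians were 83.7% ± 1.02, 0% and 6.40% ± 1.01. These medians are not over like sets, since 3 of the 10 SR genes have no decay or retained intron model. Over only the 7 SR genes with a retained intron model the median retained intron share was 23.3% ± 3.46, against 8.33% ± 0.963 over the 4259 genes with one. Leaving out Srsf1-203 brought the Srsf1 share down to 2.55%, and the median of the 7 was then that of Srsf2, 7.57% ± 1.94. The 4259 genes were not recounted in this way. Over only the 7 SR genes with a decay model the median decay share was 2.42% ± 0.251, against 1.33% ± 0.9455 over the 2123 genes with one. Processed transcripts were present in Srsf2, Srsf5, Srsf9 and Srsf10.

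**Figure D4:**
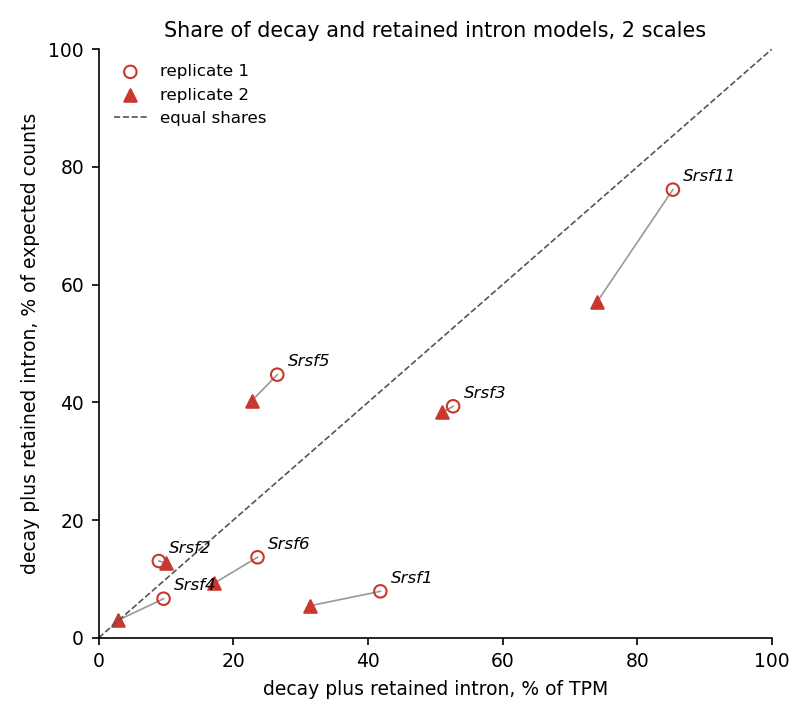
Decay plus retained intron share of the 7 SR genes that have such models, by TPM (x axis, %) against estimated reads (y axis, %), circle replicate 1 and triangle replicate 2, dashed line equal shares. Srsf1 lies far below the line and Srsf5 above it, while Srsf11 has the largest share on both scales.

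The order of the genes depended on which transcripts were summed. By gene TPM the neighbours Srsf5 and Srsf3, Srsf1 and Srsf2, Srsf7 and Srsf10, Srsf10 and Srsf6, and Srsf9 and Srsf4 had overlapping ranges, while Srsf3 over Srsf1, Srsf2 over Srsf11, Srsf11 over Srsf7, and Srsf6 over Srsf9 were separated in both libraries. By coding TPM, Srsf5 led with 105.3 ± 2.20, followed by Srsf3 (87.0 ± 8.08) and Srsf1 (86.8 ± 8.49), whose ranges overlapped. Srsf7 came next at 66.5 ± 6.25, ahead of Srsf2 at 52.0 ± 5.01 and Srsf6 at 47.6 ± 7.96. Srsf11 fell from the fifth place by gene TPM to the ninth by coding TPM, at 18.4 ± 7.12, where it overlapped both Srsf4 (21.4 ± 2.81) and Srsf9 (17.6 ± 3.73).

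Between the libraries no SR gene differed by 2-fold or more in scaled reads, against 5.39% of 11810 genes with at least 1 CPM in both and 29.5% of 17339 genes with any read. The log2 ratio of replicate 2 to replicate 1 was lowest in Srsf11 (-0.26) and Srsf5 (-0.25), followed by Srsf1 (-0.11), and the other 7 lay within 0.08 of 0. In 9 of 10 genes the coding TPM was higher in replicate 2, by up to 1.75-fold in Srsf11, and Srsf5 was the exception. The median gene TPM of the 9129 protein-coding genes at 1 TPM was also higher in replicate 2, at 7.79 against 6.72. How many of all genes were higher in coding TPM was not counted, so the 9 cannot be read as particular to SR genes. Single transcripts were read on another measure, the deposited TPM intervals, so they cannot be set against the 2-fold line for genes. On that measure the gene levels of Srsf2, Srsf3, Srsf4, Srsf5, Srsf6 and Srsf7 did not overlap between libraries either. For Srsf3 the intervals were 165.4 to 172.6 and 185.3 to 190.0 TPM. The CPM of replicate 2 over replicate 1 was 1.05 in Srsf2 and 1.03 in Srsf6. It was 0.965 in Srsf3, 0.998 in Srsf4, 0.84 in Srsf5 and 0.984 in Srsf7, so there the reads were not higher in replicate 2. The share of all genes without overlap was not counted. Of the 33 SR transcripts that held at least 5% of their gene in either library, 24 had deposited TPM intervals that did not overlap between libraries, against 66% of 16639 such transcripts in the background genes.

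**Figure D5:**
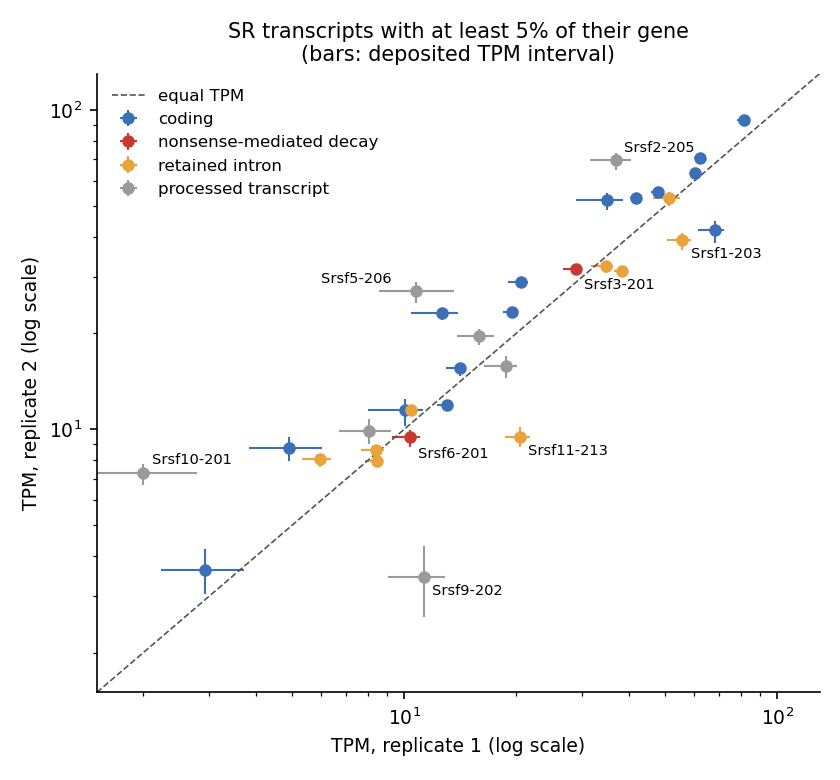
TPM in replicate 1 (x axis) against replicate 2 (y axis), both on log scales, of the 33 SR transcripts that hold at least 5% of their gene, coloured by class, with the deposited TPM intervals as bars. Srsf3-201 and Srsf6-201 lie near the dashed line of equal TPM, Srsf2-205, Srsf5-206 and Srsf10-201 above it, and Srsf1-203, Srsf11-213 and Srsf9-202 below it.

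Other genes of the splicing pathway were read by the same rule, at least 20% decay plus retained intron RNA in both libraries, which 26.3% of the background genes met by TPM and 16.9% by estimated reads. The kinases that phosphorylate SR proteins were nearly all present, with 11 of 12 genes of the list of kinases, phosphatases and importin at 1 TPM in both libraries (Srpk3 was at 0). Clk1 was at 105.8 and 119.5 TPM with a retained intron share of 51.8% and 59.0%, and Clk4 at 41.3 and 40.3 TPM with 50.8% in each. In this list 4 of the 7 genes with such models passed by TPM, Clk2 and Ppp1cc being the others, and 3 passed by reads.

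Of the 15 SR-like activators, 14 reached 1 TPM, and the exception was Srsf12 at 0.14 and 0 TPM. Among them 4 of 8 passed by TPM and 3 by reads. Tra2b, a splicing activator known for its own poison exon, had a decay share of 14.4% and 5.26%, and Son, a speckle protein, 15.3% and 15.2%. Rsrc2 had 29.1% and 21.5% decay RNA, and Rsrp1 29.9% and 35.1% retained intron RNA. Of the 19 hnRNP genes, whose proteins often oppose SR proteins, all reached 1 TPM, and 7 of 11 passed by TPM but 4 by reads. Hnrnpm, at 39.9% and 34.7% of TPM, was at 11.2% and 9.29% of reads, and Hnrnpu, at 32.1% and 24.7% of TPM, at 4.08% and 2.68% of reads. By TPM the list was led in decay RNA by Hnrnpd (45.0% and 56.6%) and in retained intron RNA by Hnrnpk (56.9% and 55.7%). All 4 export partners, Nxf1 among them at 38.8 and 32.4 TPM, were expressed, and 0 of 3 passed on either scale.

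The machinery that removes decay RNA was expressed throughout. All 18 decay factors reached 1 TPM in both libraries, with a median of 12.6 ± 0.0495 TPM. Upf1, the central helicase, was at 6.42 and 7.98 TPM, Upf2 at 11.0 and 12.7 TPM, and Smg1, the kinase that phosphorylates Upf1, at 12.7 and 12.6 TPM. Of 7 with such models 1 passed by TPM, Smg5, with 24.0% and 42.4%, and 0 by reads.

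These values describe steady-state RNA in the deposited estimates. In total RNA, unspliced precursor and stable retained intron RNA cannot be told apart, and the amount of decay RNA made before degradation was not measured. The labels give different size ranges for the libraries, 200 to 1000 in replicate 1 and 187 to 1606 in replicate 2, with no unit, and their part in the values of short transcripts was not tested.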

How the data were processed

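Total RNA-seq of 2 common myeloid progenitor libraries was analysed from 1 gene and 1 transcript table per library. Per the library descriptions deposited with them, the authors used assembly mm10 and annotation GENCODE M4; the aligner and quantifier are not given in the sources used here. The deposited expected counts are estimated reads per gene or transcript, not normalized. The deposited TPM values were scaled to a fixed library sum and corrected for effective length by the authors, and a posterior mean TPM stands beside them. The deposited TPM interval bounds, here read as a signal on the TPM scale, have no stated level. The lengths are also the authors'.

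Transcript types and exons came from GENCODE M21 (GRCm38), joined by stable identifier: 101510 of 103639 transcripts matched, including all 67 SR transcripts, 58 of them with an identical length. Shares are a class's transcript TPM, or expected counts, over the sum of its gene. Ratios between libraries used expected counts rounded to whole numbers, TMM factors from edgeR 4.0.16 and a prior count of 0.5, with DESeq2 1.42.0 size factors as the alternative. The ratio was tested on simulated data for all 43346 genes, where 200 genes were given a 4-fold change and 100.0% of these came out past the 2-fold line. The 200 were taken from genes with at least 100 expected counts, and the simulated counts varied by counting error only. This checked the arithmetic and says nothing about spread between replicates. A count of 0 allows up to 3 counts, or 0.107 CPM in replicate 1 and 0.0357 CPM in replicate 2, and Wilson 95% intervals on rounded counts cover counting error only: they cover neither the division of reads between models nor PCR copies. Named are all 10 genes, every transcript of theirs with at least 5% of TPM in either library, and genes of the related lists. The members and lists were chosen with earlier results of these data known. Alternatives were other scales, thresholds, filters and each library alone. Expected counts of Srsf3, Srsf5 and Srsf10 are not whole at the gene level, so some of their reads were divided with other entries. Coordinates are 1-based.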

Additional observations from a re-analysis of the deposited data

How the results depend on the processing

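The median TPM of the SR genes was 77.1 to 80.6 in each library alone. When TPM was rescaled to nuclear protein-coding genes it was 379.0, at 383.8 in replicate 1 and 374.3 in replicate 2. On that scale replicate 1 was the higher library. By expected counts the median coding share was 82.9%; each library alone gave 57.6% to 61.0%. Chosen after seeing the data, counting only genes with such a model gave medians of 2.42% decay and 23.3% retained intron. Leaving out Srsf1-203, the retained intron model with no base of its own, was also chosen then. It gave 3.10% retained intron over all 10 genes and 7.57% over the 7 with such a model. Each library alone gave 0.446% to 1.48% decay and 4.30% to 6.86% retained intron. The number of SR genes with at least 20% decay plus retained intron RNA was 4 or 5 in each library alone, 4 by posterior mean TPM and among genes with at least 1000 reads, 3 by expected counts or without Srsf1-203, 5 at a threshold of 10% and 3 at 30%. The count of SR genes at 2-fold or more was 0 under DESeq2 size factors, a prior count of 2 and no filter. By expected counts the decay share was lower in all 7 genes with a decay model and the retained intron share lower in 4 and higher in 3 of 7; the cause was not tested. No paired analysis was possible because there is only 1 group. Few reads limit the decay shares of Srsf1, Srsf4, Srsf5 and Srsf11 in replicate 1, which rest on 9 to 77 estimated reads. That of Srsf4 rests on only 38 in the deeper replicate 2. The decay models of Srsf1 have no base outside its coding exons. Only splice junctions set them apart, so their share also rests on how the estimate divided reads.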
